A study of Mus musculus with 4 samples.

Results

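The 6 actin genes of the mouse (Actb, Actg1, Acta2, Actg2, Acta1 and Actc1) were taken by gene name from a table of ribosome-protected signal that lists 55573 genes. They form 3 classes of 2 genes each. Actb and Actg1 code for the cytoplasmic actins, Acta2 and Actg2 for the smooth muscle actins, and Acta1 and Actc1 for the striated muscle actins of skeletal muscle and heart. The signal came from primary myoblasts, the muscle precursor cells grown from digested hind-limb muscle of mice at 3 weeks of age, on day 2 of proliferation with FGF. All cells were given cycloheximide, which stalls ribosomes on the message, before lysis, and the sources disagree on how long it was applied. There were 2 wild-type (WT) libraries and 2 libraries labelled eIF5A knockout (KO). The study describes the KO mice as Pax7CreERT2/+;eIF5Af/f, in which tamoxifen activates a Cre recombinase made from the Pax7 locus and so deletes floxed eIF5A in satellite cells, the Pax7-expressing stem cells of muscle. Its WT controls are given in different places as littermates, as Pax7CreERT2/+ mice and as mice that carry the floxed allele with no Cre, so which alleles and agents both groups shared could not be settled. Cells of the dish that never expressed Pax7 would keep eIF5A. The question was which messages are read by ribosomes to a different extent when this translation factor is deleted, here asked of the actins.

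Actin monomers assemble into filaments that carry cell shape, crawling and division in every cell and contraction in muscle. Cytoplasmic beta- and gamma-actin are made in nearly all cells, alpha smooth muscle actin marks smooth muscle and contractile fibroblasts, and alpha skeletal and alpha cardiac actin build the thin filament of the sarcomere. Muscle precursors make mostly cytoplasmic actin while they divide, and turn to the striated actins, the cardiac one included, as they differentiate. A newly made actin chain is folded by prefoldin and the CCT chaperonin and is then trimmed, acetylated and methylated by dedicated enzymes.

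The 6 proteins are so alike that the reads themselves need describing before their levels. Translated from GENCODE M21 coding sequences (build GRCm38) and compared over 375 residues from the last codon, the 2 proteins of each class differed at 4 residues (98.9% identity). The 4 muscle proteins differed from each other at 4 to 8 residues, and a cytoplasmic protein differed from a muscle protein at 22 to 25. The coding bases had diverged further, with an identity between 81.7% for Actg1 and Acta2 and 88.6% for Actb and Actg1.

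A ribosome protects about 28 bases of mRNA. The start of the coding sequence is where a stretch of that length was least alike in the 6 genes, and where the proteins carry their acidic N terminus. It is thus the best case for telling them apart by a footprint. The stretches begin at coding base 1 in Actb and Actg1, at 7 in Acta1, Actc1 and Acta2, and at 4 in Actg2, and bases that differ from Actb are in capitals.
Actb: atggatgacgatatcgctgcgctggtcg
Actg1: atggaAgaAgaAatcgcCgcActCgtcA
Acta1: GACgaAgacgaGaCcAcCgcTctTgtGT
Actc1: GACgaCgaGgaGaCcAcCgcTTtggtGT
Acta2: GAAgaGgaAgaCaGcAcAgcCctggtGT
Actg2: TGTgaAgaAgaGaCcAcCgcCctTgtGT
Actg1 differed from Actb at 7 of these 28 bases, Acta1 and Acta2 at 12, and Actc1 and Actg2 at 13. A footprint from this stretch would tell these 6 genes from each other, but not always from other genes. All 28-base windows of Actg1, this stretch included, also occurred in an annotated transcript of another gene. Among the first 8 codons, 3 coded for an acidic residue in Actb, Actg1 and Actg2 and 4 in Acta1, Actc1 and Acta2. The longest run of prolines, a context in which eIF5A is known to help the ribosome, was 2 in each of the 6 proteins and occurred 1 time in each.

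Over the whole coding sequence, the share of 28-base windows that occurred letter for letter in another isoform was 14.4% in Actb, 11.8% in Actg1, 6.97% in Acta1, 2.99% in Acta2, 2.26% in Actc1 and 2.09% in Actg2. With up to 2 mismatches allowed, as many short-read aligners do, these shares were 37.9% for Actc1, the lowest, and 58.1% for Actb, the highest. Most positions of the muscle actins thus occurred in no other isoform on an exact match, and fewer lay over 2 mismatches from every other isoform. Whether a read within 2 mismatches of another isoform can be told apart depends on whether the aligner kept only the best match, which is not given. Against all annotated transcripts outside its own locus, Actg1 stood apart from the other 5 genes: 100% of its windows occurred in another gene, against 49.4% for Actb and between 2.26% and 7.97% for the muscle isoforms. The same held at 26 and 32 bases, the ends of the footprint range, with 100% for Actg1 at both lengths and 52.7% and 43.0% for Actb. Of the 51 other genes that shared a window, 40 were pseudogenes, and Gm12715 alone held 1036 of the 1098 windows of Actg1.

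**Figure D1:**
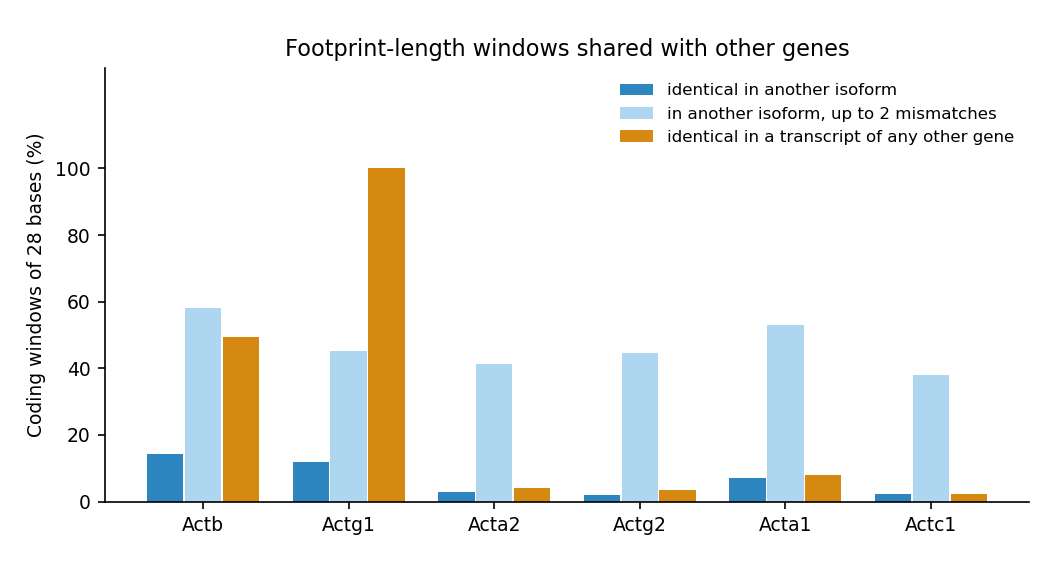
Share (%) of the 28-base windows of each actin coding sequence that occur in another actin isoform without mismatch, in another isoform with up to 2 mismatches, or without mismatch in an annotated transcript of any other gene. Actg1 reaches 100% in the last measure and Actb 49.4%, while the 4 muscle isoforms lie at 7.97% or lower.

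The table nevertheless gave Actg1 942 reads over the 4 libraries and gave the 40 pseudogenes 35 reads together, with 29 of them at 0 in every library and none above 9. Gm12715 was listed at 0 throughout. A gene with more reads was Lrrc58, protein-coding, whose annotated transcripts held 312 of the 1098 windows of Actb and whose reads numbered 74 in WT 1, 66 in WT 2, 73 in KO 1 and 72 in KO 2. How reads that match several genes were assigned is not given in the sources used here, and the table does not say whether strand was used. The levels of all 6 actins are therefore uncertain by whatever those rules did. This holds for the weakly read muscle isoforms too, since 6.16% of the windows of Acta1 occurred letter for letter in Actb, which had far more reads, and 24.5% did with up to 2 mismatches. Annotated genes that overlap an actin locus (Gm23419 and Mir6935 at Actg1, Gm20388 at Acta1 and A530058N18Rik at Actc1) were all listed at 0.

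Depth set how finely the isoforms could be read. Whole reads recovered from the RPKM values (reads scaled by gene length and by library size) came to between 642429 and 704006 a library, of which 41.5% and 33.9% in WT 1 and 2 and 65.4% and 59.2% in KO 1 and 2 fell on protein-coding genes. Eif5a, the targeted gene, was at 34.9 and 65.2 RPKM in WT and at 60.3 and 59.4 RPKM in the libraries labelled KO, a log2 fold change of 0.32 ± 0.48 (SE; limma, adjusted p = 0.839) that was -0.12 ± 0.18 (SE) without WT 1. At the level of the whole gene, on 50 to 130 reads a library, the targeted gene thus did not separate the groups as the labels would. Reads by exon, and reads shared with other genes, were not examined for it. KO below therefore means the libraries labelled KO. Of the markers that define myoblasts, Myod1 was read in every library, at 139.9 and 117 RPKM in WT and 48.6 and 79.8 in KO, while Myf5 was listed at 0 in KO 2. WT 1 stood apart from the other 3 libraries in several muscle genes, and the values without it are given beside the results that rest on it most. The study calls the profiling a duplicate experiment without saying whether the 2 libraries of a group came from separate cultures or animals, so the p-values measure the spread between these libraries, which may be technical. In a dish of mixed cells, fewer cells of a type and less signal per cell cannot be told apart.

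The 6 actins took 1010 reads in WT 1, 1290 in WT 2, 2644 in KO 1 and 2464 in KO 2. As a share of all reads this was 0.156% (95% Wilson interval 0.146 to 0.166) and 0.201% (0.190 to 0.212) in WT, and 0.376% (0.362 to 0.390) and 0.379% (0.364 to 0.394) in KO, with no overlap between the groups. As a share of protein-coding reads it was 0.375% (0.353 to 0.399) in WT 1, 0.593% (0.561 to 0.626) in WT 2, 0.575% (0.553 to 0.597) in KO 1 and 0.640% (0.615 to 0.666) in KO 2, and the groups overlapped. The gap in the first measure therefore went with the larger coding share of the KO libraries, and in the second WT 1 was the low library. These intervals cover counting error only, since PCR copies of a fragment are counted again.

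All 6 actins passed the filter on low values, and none passed the test between KO and WT at an adjusted p under 0.05 (limma on log2(RPKM + 1), with Benjamini-Hochberg adjustment over 11363 genes). In 1 alternative, described with Actc1, that gene did pass. Both cytoplasmic actins had higher mean levels in KO and all 4 muscle actins had lower ones. The widest difference was that of cardiac actin, Actc1, the only 1 of the 6 past an unadjusted p of 0.05, and voom on the recovered reads also passed none of the 5 it could test, with Acta1 and Actc1 at an unadjusted p under 0.05, where 10.1% of all genes were in voom. Over all genes, 0.0968% passed at an adjusted p under 0.05 in the lower direction and 0.0088% in the higher, and at an unadjusted p under 0.05 these were 4.46% and 2.86%. With a change over 2-fold added to the unadjusted p, 4.29% of genes (488) were lower and 2.67% (303) higher, a split that became 98 against 1640 when every library was scaled to the same summed RPKM and 608 against 208 when only protein-coding genes set the scale. In RPKM, 3 actins (Acta1, Actc1 and Acta2) had both KO libraries below both WT libraries, and Actb had both above. Over all genes 20.3% did not overlap in the lower direction and 20.1% in the higher. RPKM carries the authors' library sizes, which are not the read totals, and scaling to the read totals was not run. In recovered reads, undivided, Acta1 (119 and 30 in WT, 42 and 32 in KO) and Acta2 (130 and 76 in WT, 93 and 119 in KO) overlapped. Actc1 and Actb did not. The median log2 fold change of all genes tested was 0.00026, with 5680 below 0 and 5683 above. An exact permutation test of 2 against 2 libraries cannot go below p = 0.333.

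Actb (ENSMUSG00000029580; mm10 chromosome 5, 142903115 to 142906754, minus strand, 6 exons) codes for beta-actin and gave the highest signal of the family in every library. It was at 370.3 and 779.6 RPKM in WT and at 875.8 and 940.0 RPKM in KO. Both KO libraries were above both WT libraries, but WT 2 was closer to them than to WT 1. The means were 574.9 ± 289.5 (SD, n = 2) in WT and 908 ± 45.4 (SD, n = 2) in KO, and the log2 fold change was 0.75 (95% interval -0.80 to 2.31; limma, adjusted p = 0.724). These levels rested on 598, 984, 2128 and 2034 reads in WT 1, WT 2, KO 1 and KO 2, so counting error was small beside the gap between the WT libraries. Without WT 1 the log2 fold change was 0.22 and without WT 2 it was 1.29, and under quantile normalization or with the same summed RPKM in every library it was 1.84. The adjusted p in these settings lay between 0.309 and 0.760 (limma). By RPKM, Actb ranked 10th and 8th among protein-coding genes in WT 1 and 2 and 6th in both KO libraries.

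Actg1 (ENSMUSG00000062825; chromosome 11, 120345690 to 120348542, minus strand, 5 exons), which codes for gamma-actin, had the same low library. It was at 61.2 and 155 RPKM in WT and at 156 and 128 RPKM in KO. The groups overlapped, with WT 1 the single low value. The log2 fold change of 0.53 (95% interval -0.93 to 1.99; limma, adjusted p = 0.776) turned to -0.13 without WT 1, and was 1.19 without WT 2 and 1.60 with the same summed RPKM in every library. The ratio of Actb to Actg1, both in RPKM, was 6.05 and 5.03 in WT and 5.62 and 7.37 in KO, so the balance between the cytoplasmic isoforms overlapped between the groups although their levels moved between libraries.

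**Figure D2:**
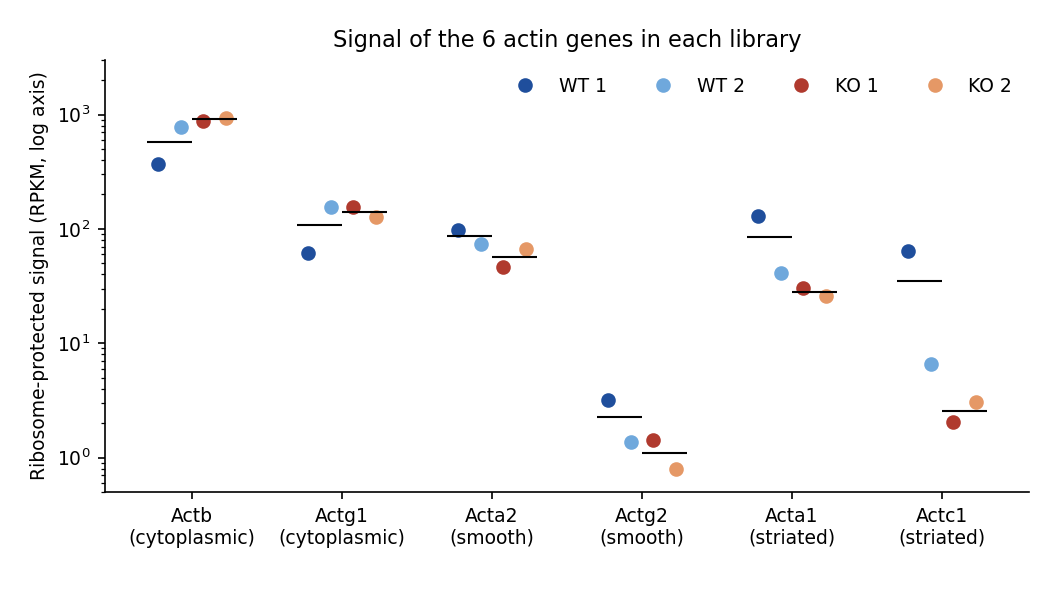
Ribosome-protected signal (RPKM, log axis) of the 6 actin genes in each of the 4 libraries, with black lines at the group means. WT 1 is the lowest library for Actb (370.3 RPKM) and Actg1 (61.2 RPKM) and the highest for the 4 muscle isoforms.

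The smooth muscle actins were read at moderate level in the case of Acta2 and hardly at all in the case of Actg2. Acta2 (ENSMUSG00000035783; chromosome 19, 34241090 to 34255590, minus strand, 9 exons), alpha smooth muscle actin, was at 98.2 and 73.5 RPKM in WT and at 46.7 and 67.1 RPKM in KO. In RPKM both KO libraries were below both WT libraries, by a narrow margin between WT 2 and KO 2. Recovered reads, 130 and 76 in WT and 93 and 119 in KO, overlapped. The means were 85.8 ± 17.5 (SD, n = 2) and 56.9 ± 14.4 (SD, n = 2), a log2 fold change of -0.59 (95% interval -1.73 to 0.54; limma, adjusted p = 0.716). With every library scaled to the same summed RPKM, Acta2 turned to 0.47, a scaling under which the median over all genes tested was 0.81.

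Actg2 (ENSMUSG00000059430; chromosome 6, 83512905 to 83536265, minus strand, 9 exons), the gamma-actin of gut and other visceral smooth muscle, was read 3 times and 1 time in WT and 2 times and 1 time in KO. In RPKM this was 3.20 and 1.36 in WT and 1.42 and 0.795 in KO, with overlap. The ratio of KO to WT in reads divided by the authors' library sizes was 0.470, with a 95% exact interval from counting of 0.0688 to 2.78. No difference in Actg2 was detected at this depth, and the interval leaves room for one in either direction.

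The striated actins had the lowest KO-to-WT ratios of the family, and most of the gap came from WT 1. Acta1 (ENSMUSG00000031972; chromosome 8, 123891769 to 123894751, minus strand, 7 exons), alpha skeletal actin of adult muscle, was at 129 and 41.5 RPKM in WT and at 30.1 and 25.8 RPKM in KO. WT 1 was far above the rest and WT 2 was nearer the KO libraries. The means were 85.0 ± 61.6 (SD, n = 2) and 27.97 ± 3.08 (SD, n = 2), and the log2 fold change was -1.36 (95% interval -2.89 to 0.17; limma, adjusted p = 0.676). Without WT 1 it was -0.56 and without WT 2 it was -2.16. With the same summed RPKM in every library it was -0.31, where the median over all genes tested was 0.81. These levels came from 119, 30, 42 and 32 reads in WT 1, WT 2, KO 1 and KO 2.

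Actc1 (ENSMUSG00000068614; chromosome 2, 114047282 to 114053548, minus strand, 7 exons), alpha cardiac actin, is the main actin of the heart and an early one in differentiating skeletal muscle. It was at 63.6 and 6.56 RPKM in WT and at 2.04 and 3.06 RPKM in KO. The reads were 62 in WT 1 but 5, 3 and 4 in WT 2, KO 1 and KO 2, so 1 library held nearly all of them. The log2 fold change was -2.65 (95% interval -5.06 to -0.24; limma, unadjusted p = 0.0359, adjusted p = 0.672), and -1.10 without WT 1. With the replicate number as a block and the trend on GC content removed together, a setting that called 40 genes lower and 52 higher, Actc1 passed at -2.76 (limma, adjusted p = 1.66e-06). In reads divided by the authors' library sizes, which are not the read totals, the ratio of KO to WT was 0.0654 (95% exact interval from counting 0.0253 to 0.142). Without WT 1, on 5 reads in WT and 7 in KO, it was 0.385 (0.105 to 1.54). In the limma test reported for all 6, Actc1 was the only 1 to pass a change over 2-fold at an unadjusted p under 0.05. Under some alternatives Acta1 also did, lower in KO, and Actb and Actg1 did, higher in KO. The means, 35.1 ± 40.3 (SD, n = 2) in WT and 2.55 ± 0.719 (SD, n = 2) in KO, show an SD in WT above the mean itself.

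**Figure D3:**
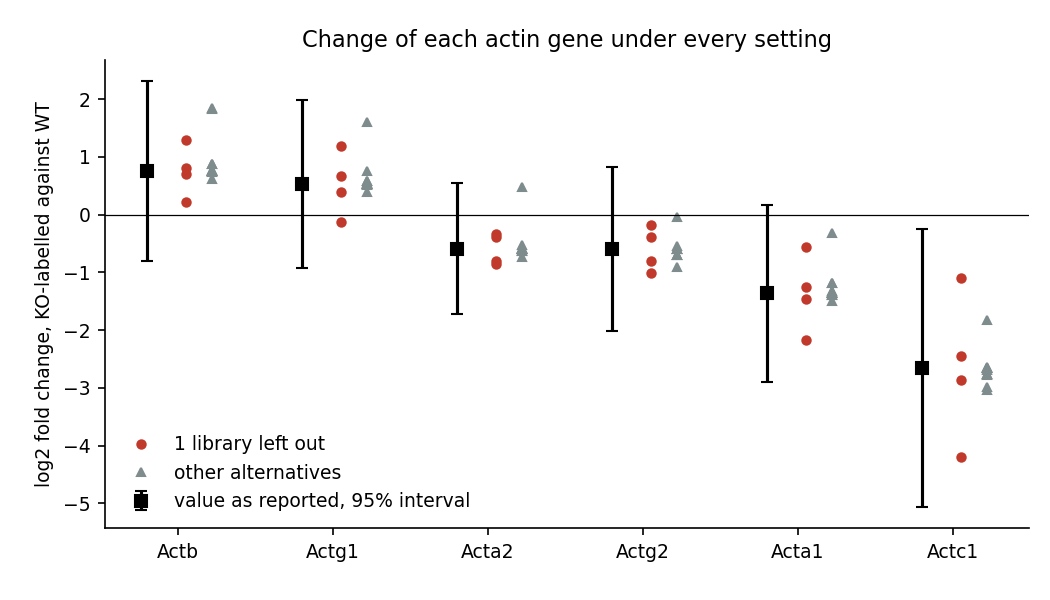
The log2 fold change of KO against WT on log2(RPKM + 1) for each actin gene (square, with its 95% interval), with the values when 1 library is left out (circles) and under the other alternatives (triangles). Only the interval of Actc1, from -5.06 to -0.24, does not reach 0, and Actg1 and Acta2 have values on both sides of 0.

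Within a library, levels were compared per length, in RPKM. The order was the same in WT 2, KO 1 and KO 2, from Actb through Actg1, Acta2, Acta1 and Actc1 to Actg2. In WT 1 the order was Actb, Acta1, Acta2, Actc1, Actg1 and Actg2, so gamma-actin stood below all muscle isoforms but Actg2 there. Actb at the top and Actg2 at the foot were the fixed ends in all 4 libraries. In between, the ranges over the 4 libraries of Actg1 (61.2 to 156 RPKM), Acta2 (46.7 to 98.2) and Acta1 (25.8 to 129) overlapped. That overlap came from WT 1. Over WT 2, KO 1 and KO 2 the ranges of Actg1 (128 to 156 RPKM), Acta2 (46.7 to 73.5) and Acta1 (25.8 to 41.5) lay apart. Acta1 was above Actc1 in each of the 4 libraries, by a ratio of 2.02 and 6.32 in WT and of 14.7 and 8.43 in KO, and Actc1 was above Actg2 in each. Actb was 2.88 times Acta1 in WT 1, 18.8 times in WT 2, 29.0 times in KO 1 and 36.4 times in KO 2. The ratio of Acta2 to Acta1 was 0.764 in WT 1, below 1, and 1.77, 1.55 and 2.60 in WT 2, KO 1 and KO 2.

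The table's gene lengths take in the untranslated ends, which carry few footprints and differ between the isoforms (2679 bases in all for Actb, 1536 for Acta1), while the coding lengths are nearly equal (1125 to 1131 bases). Per coding kilobase, Actb was at 882 and 1857 in WT and at 2086 and 2238 in KO, and Acta1 at 175, 56.3, 40.9 and 35.0 in WT 1, WT 2, KO 1 and KO 2. On this scale Acta2, at 191, and Acta1, at 175, changed places in WT 1, and Actg1 at 144 passed Actc1 at 90.9. The order in the other 3 libraries was the same on both scales.

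The make-up of the actin signal differed most between WT 1 and the rest. Cytoplasmic isoforms took 59.5% and 88.4% of the summed actin RPKM in WT and 92.8% and 91.7% in KO. Striated isoforms took 26.5% and 4.54% in WT and 2.89% and 2.48% in KO, and smooth muscle isoforms 14.0% and 7.08% in WT and 4.33% and 5.83% in KO. In each class both KO libraries lay on 1 side of both WT libraries. The group means were 73.9 ± 20.4% against 92.2 ± 0.769% for the cytoplasmic class, 15.5 ± 15.5% against 2.69 ± 0.295% for the striated class and 10.5 ± 4.89% against 5.08 ± 1.06% for the smooth muscle class (SD, n = 2 each). By reads alone, the striated share was 17.9% (95% Wilson interval 15.7 to 20.4) in WT 1, 2.71% (1.96 to 3.75) in WT 2, 1.70% (1.27 to 2.27) in KO 1 and 1.46% (1.06 to 2.02) in KO 2. The interval of WT 2 overlapped those of both KO libraries, whereas that of WT 1 was far above all 3.

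**Figure D4:**
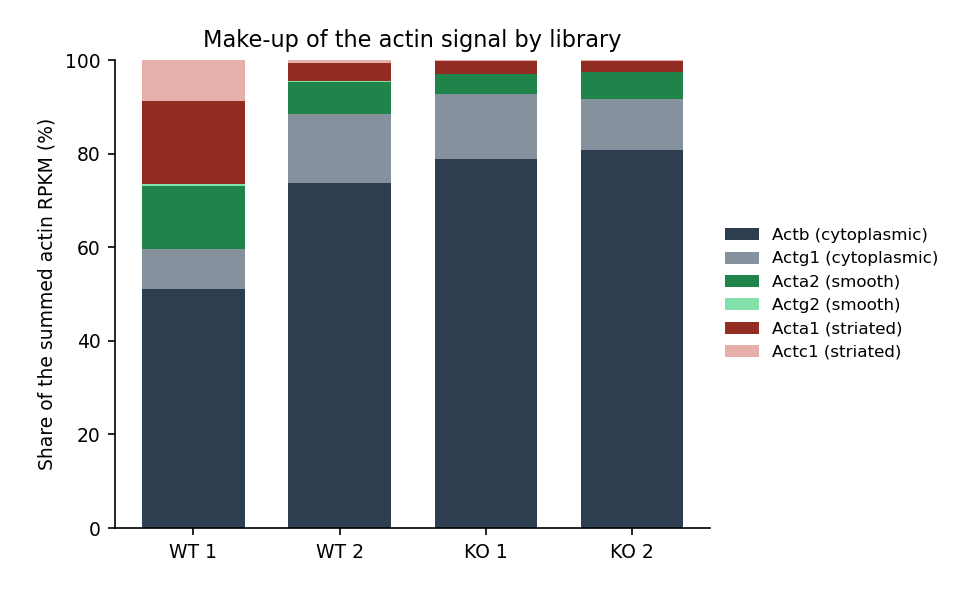
Share (%) of the summed actin RPKM that each of the 6 genes took in each library, stacked by gene. The striated genes Acta1 and Actc1 together make 26.5% in WT 1 and between 2.48% and 4.54% in the other 3 libraries.

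Of the markers of differentiating muscle cells, Myog and the summed level of the list were highest in the library where the striated actins were highest. The summed level of 8 such markers was 106 and 12.5 RPKM in WT and 3.97 and 3.60 RPKM in KO, and 3 of the 8 did not overlap, all lower in KO, where 20.3% of all genes did not overlap in that direction. Myog, the transcription factor that starts muscle differentiation, was at 91.0 RPKM in WT 1, 4.26 in WT 2, 0.737 in KO 1 and 1.66 in KO 2. Myog alone made up most of the sum in WT 1, and not every marker followed it. Tnnt3 (3.14 and 5.36 RPKM in WT) and Ckm, muscle creatine kinase (1.71 and 2.91 RPKM in WT), were higher in WT 2 than in WT 1. Mymk and Mymx, which drive myoblast fusion, were read only in KO 1, at 1.46 and 1.07 RPKM, and were listed at 0 in the other 3 libraries. Myh3, the embryonic myosin heavy chain, had 11 reads in WT 1 and at most 1 in each of the other 3 libraries. The summed level of the myoblast markers was also lower in KO, at 233 and 186 RPKM over 8 genes in WT and at 70.5 and 113 RPKM in KO. Myod1 made up most of that sum in every library. Of the 8 genes 6 were lower in KO without overlap (20.3% over all genes). The part of these cells in the levels of Acta1 and Actc1 was not tested.

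For Acta2, the markers of smooth muscle and pericytes did not separate the groups in the same way. Their summed level over 10 genes was 99.0 and 78.2 RPKM in WT and 88.4 and 68.0 RPKM in KO, and 2 of the 10 were lower and 3 higher in KO without overlap, shares close to the 20.3% and 20.1% over all genes. Myh11, the smooth muscle myosin, lay between 0.435 and 1.14 RPKM, and Cnn1, calponin, was listed at 0 in both WT libraries and had 1 and 3 reads in KO. The 2 lower ones, as Acta2 was, were Rgs5, a pericyte signalling regulator, at 17.9 and 11.7 RPKM in WT and at 7.76 and 10.3 RPKM in KO, and Notch3, a receptor of mural cells, at 11.5 and 6.04 RPKM in WT and at 4.91 and 4.59 RPKM in KO. Smtn, smoothelin, was at 12.1 and 15.0 RPKM in WT and at 14.6 and 9.33 RPKM in KO, with overlap. Fibroblast markers, of cells that can also make Acta2, summed to 506 and 330 RPKM over 10 genes in WT and to 920 and 413 RPKM in KO, with 4 of the 10 higher and 1 lower in KO without overlap. Endothelial markers summed to 105.5 and 99.8 RPKM over 5 genes in WT and to 138.5 and 112 RPKM in KO, with 4 of the 5 higher in KO without overlap. Immune markers (6 genes, C1qa at 0 in every library) summed to between 25.03 and 38.5 RPKM, with 2 lower and 2 higher in KO without overlap. The part of these cells in the actin levels was not tested.

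**Figure D5:**
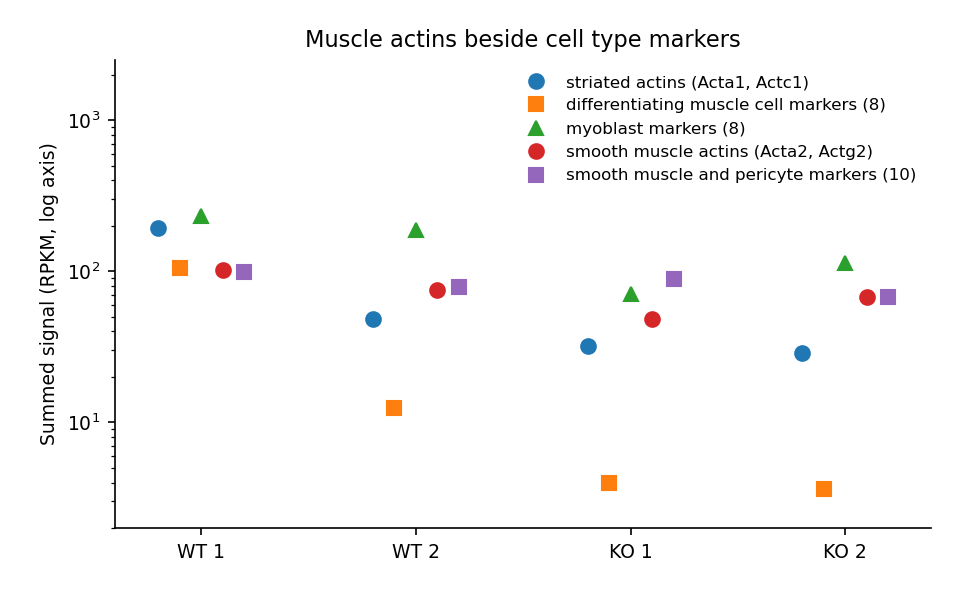
Summed signal (RPKM, log axis) in each library of the striated actins, the smooth muscle actins and 3 lists of cell type markers, with the number of genes in each list. The differentiating markers drop from 106 RPKM in WT 1 to 12.5 in WT 2 and below 4 in both KO libraries, beside the striated actins, while the smooth muscle and pericyte markers stay between 68.0 and 99.0.

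Of the genes that act on actin, none of the 9 lists examined held a gene that passed at an adjusted p under 0.05 in limma, and 5 of the 84 genes tested (5.95%, against 7.32% of all genes) passed at an unadjusted p under 0.05. With voom on reads none passed the adjusted threshold and 7 of 77 (9.09%, against 10.1% of all genes) the unadjusted one. The folding and maturation list had a median log2 fold change of 0.70, which became 0.29 with the trend on GC content removed, with 13 of 17 tested genes above 0 and 8 higher in KO without overlap (1 lower), where 20.1% of all genes were higher and 20.3% lower without overlap. Cct2, a subunit of the chaperonin that folds actin and tubulin, was at 52.5 and 138 RPKM in WT and at 160.0 and 160.8 RPKM in KO (log2 fold change 0.90; limma, adjusted p = 0.697), and its log2 fold change without WT 1 was 0.22. It shares with Actb the low value in WT 1, and without WT 1 the median of the list was 0.34. All 8 chaperonin subunit genes, looked at after their values were seen, had fold changes of one sign, from 0.70 for Cct5 to 1.24 for Cct8 on the log2 scale, which became 0.53 and 0.42 without WT 1. Of the enzymes particular to actin, also looked at afterwards, Naa80, which acetylates the actin N terminus, was at 4.73 and 6.06 RPKM in WT and at 1.75 and 3.14 RPKM in KO (log2 fold change -0.92; limma, adjusted p = 0.676), and Setd3, which methylates an actin histidine, had a log2 fold change of -0.11 ± 0.59 (SE) on 3 to 6 reads a library.

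Proteins that bind actin monomers or sever filaments had a median of 0.23, with 9 of 12 above 0, and of 0.093 without WT 1. Cfl2, the cofilin most typical of muscle, was at 5.59 and 5.20 RPKM in WT and at 13.5 and 12.5 RPKM in KO (log2 fold change 1.13; limma, unadjusted p = 0.0203, adjusted p = 0.660), with no overlap. Cap2, a cyclase-associated protein of heart, skeletal muscle and brain, rested on 17 reads in WT 1, 6 in WT 2, 1 in KO 1 and 5 in KO 2 (log2 fold change -1.66; limma, unadjusted p = 0.0297, adjusted p = 0.672), and its log2 fold change without WT 1 was -1.19. The 2 genes that passed over 2-fold at an unadjusted p thus lay in opposite directions.

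The Arp2/3 complex, which starts branched filaments, had 8 of 9 genes above 0, a median of 0.46 and 3 genes higher in KO without overlap (20.1% over all genes). Without KO 2 the median was 0.16 with 6 of 9 above 0, and without WT 1 it was 0.30. Arpc3 was at 36.0 and 51.5 RPKM in WT and at 69.1 and 60.1 RPKM in KO. The actin-related and actin-like proteins had 9 of 18 genes tested, 6 of them above 0, and a median of 0.50 that became -0.0058 without WT 1. In that list Actr2, an Arp2/3 subunit, was at 15.0 and 26.1 RPKM in WT and at 34.1 and 30.9 RPKM in KO. Capping and crosslinking proteins had 10 of 13 above 0 and a median of 0.25, which was 0.10 without KO 1. The exception past 2-fold at an unadjusted p was Actn3, the alpha-actinin of fast muscle fibres, at 16.01 and 2.93 RPKM in WT and 1.14 and 1.28 RPKM in KO, with 28 of its 38 reads in WT 1; its log2 fold change was -1.89 with that library and -0.83 without it.

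Of 18 genes of the striated thin filament 11 were tested, 6 below and 5 above 0, with a median of -0.17 that became 0.095 without WT 1. Tnnt3, fast troponin T, passed over 2-fold at an unadjusted p on 3, 4, 1 and 1 reads in WT 1, WT 2, KO 1 and KO 2. Of 9 smooth muscle partners 4 were tested, all below 0, with a median of -0.20 that became 0.061 without KO 2 (3 of 4 above 0) and -0.76 without WT 1. Des, desmin, the intermediate filament of muscle that is also a myoblast marker, was at 46.0 and 40.1 RPKM in WT and at 13.8 and 21.4 RPKM in KO (log2 fold change -1.27; limma, unadjusted p = 0.0257, adjusted p = 0.665). Unlike Acta1 and Actc1, Des was alike in the 2 WT libraries.

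Serum response factor (SRF) binds a motif named the CArG box and is known to switch on actin genes with its coactivators, which sense free actin. RefSeq promoters (GRCm38.p6, 250 bases before to 50 after the start) were matched for 4 of the 6 actins, all but Actb and Actg2. The CArG box was searched only as CC, then 6 bases that are A or T, then GG. Of the 4 promoters 3 held such boxes, against 535 of all 32851 promoters (1.63%). They are printed because the motif is shared by Actg1, which overlapped between the groups, and by both striated actins; the box, which reads as a CArG box on either strand, is in capitals.
Actg1, chr11:120348568-120348593, minus strand, 90 bases before the start: aaagatcgCCATATATGGacatgttc
Acta1, chr8:123894831-123894856, minus strand, 73 bases before the start: cccgacacCCAAATATGGcttgggaa
Actc1, chr2:114052905-114052930, minus strand, 47 bases before the start: taaggcgaCCAAATAAGGcaaggtgg
The window of Acta2 held no exact match to that pattern, and boxes that depart from it were not searched for. Srf itself was at 21.8 and 18.3 RPKM in WT and at 3.05 and 14.6 RPKM in KO (log2 fold change -1.40; limma, adjusted p = 0.676). Both KO libraries were below both WT libraries, and KO 1 was the lowest. The part of Srf in the actin levels was not tested. Of SRF and its coactivators 4 genes were tested, 2 on each side of 0, with a median of -0.015 that became 0.45 without KO 1 and -0.48 without KO 2. Of 15 known SRF targets other than the actins 13 were tested, 7 below and 6 above 0, with a median of -0.082. The median was -0.31 without WT 1 (10 below, 3 above), 0.36 without WT 2 (4 below, 9 above) and 0.20 with a pseudocount of 0.1, so its sign depended on the setting. Ccn1, the most strongly read of them, was at 261 and 362 RPKM in WT and at 399 and 310.3 RPKM in KO.

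Genes whose pattern over the 4 libraries was most like an actin were ranked by the distance between log2(RPKM + 1) values centred on their mean, among 3575 candidates with at least 100 reads. Nearest to Actb were Scpep1 (distance 0.0688), Abcd3 (0.0743) and Ilf2 (0.0919), and nearest to Actg1 were Ecm1 (0.0820), Il11 (0.0988) and Cxcl3 (0.115). Actg1 ranked 219th among the neighbours of Actb, and Actb 108th among those of Actg1. Nearest to Acta1 were Rpl37a (0.0820), Rgma (0.174) and Hmcn2 (0.211), and Acta2 was 432nd at 1.25. Nearest to Acta2 were Map1s (0.0281), Litaf (0.0925) and Lrrfip2 (0.0946). No actin was thus among the closest patterns of another, and with 4 libraries many genes lie near any pattern. Actc1 and Actg2, with 74 and 7 reads in all, were not compared.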

How the data were processed

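Ribosome-protected fragments of 2 WT and 2 KO libraries were measured, and the groups were taken from the titles. The titles say Polysome-Seq, while the protocol describes RNase I footprints. The authors mapped the reads with Tophat2 (mm10), counted them with HTSeq and deposited 1 table of RPKM values with gene lengths; aligner settings, the rule for reads with several matches and strand are not given in the sources used here. RPKM times gene length gave whole reads for 100% of values (tolerance 0.01), and showed that the authors divided by library sizes of 602863 and 471136 (WT 1, 2) and 906990 and 807705 (KO 1, 2), which are not the read totals. Genes whose mean over the libraries reached 1 RPKM were tested with limma (version 3.58.1, R 4.3.3; lmFit, eBayes with trend=TRUE) on log2(RPKM + 1), a scale that understates the change of low genes, with Benjamini-Hochberg adjustment over 11363 genes. The fit was tested on simulated data, where it recovered the direction and size of large changes and called none at the adjusted threshold. The simulated data held no outlying library such as WT 1, so they do not show how the fit performs on these data. On the real table the fit called 11 genes lower and 1 higher. A gene that misses this threshold is not thereby shown to be alike in both groups. Named genes were the 6 actins, Eif5a, the members of each list over 2-fold at an unadjusted p under 0.05 or otherwise the member with the highest mean RPKM, and the 3 nearest patterns of each actin with at least 100 reads; other actin-named rows with at least 20 reads would have been named, and there were none. Cell type markers, the other chaperonin genes, Naa80, Setd3 and the genes that share windows were named after their values were seen. The members, lists and tests were chosen with earlier results of these data known. Coding windows were searched in GENCODE M21 transcripts, not in the genome. Alternatives were another pseudocount, filters, scalings, variance model, read-based test (voom), a trend on GC, a replicate block and leaving out each library. RNA levels from the same cells were not used here.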

Additional observations from a re-analysis of the deposited data

How the results depend on the processing

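Of 94 alternatives run for the 6 actins, 91 kept the direction and the side of the adjusted threshold. That count is no measure of robustness. The filters, trend=FALSE and the replicate block leave the fold change as it is, so its direction could not turn. Where no gene of the whole table passed, the side of the threshold says nothing particular to the actins. Actg1 turned to -0.13 without WT replicate 1, and Acta2 to 0.47 with the same summed RPKM in every library, a scaling that moved the median of all genes to 0.81. Actc1 passed at -2.76 (limma, adjusted p = 1.66e-06) where a replicate block and the removal of a GC trend were combined, a setting that called 40 genes lower and 52 higher. The cause was not tested. With the replicate block alone no actin passed (Actc1 -2.65, adjusted p = 0.646; Acta1 -1.36, adjusted p = 0.667), and the correlation of same-numbered deviations was 0.0575. Leaving out 1 library gave 0.22 to 1.29 for Actb, -0.13 to 1.19 for Actg1, -0.85 to -0.34 for Acta2, -1.01 to -0.18 for Actg2, -2.16 to -0.56 for Acta1 and -4.20 to -1.10 for Actc1. A lone library was then assumed to vary like the other group. Other alternatives reached 1.84 for Actb, 1.60 for Actg1, -0.31 for Acta1 and -0.04 for Actg2, and voom on reads gave -1.39 for Acta1 and -3.03 for Actc1. Adjusted p over all alternatives reached up to 0.987.

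By reads or per coding kilobase, the latter chosen after seeing the data, the cytoplasmic share moved from 92.2% to 94.2% in the KO mean and from 73.9% to 80.1% and 80.2% in the WT mean, and the striated share from 2.69% to 1.58% and 1.57% in KO and from 15.5% to 10.3% in WT. The 11 genes called lower and 1 higher at an adjusted p became 0 and 0 under the other pseudocount and filters, trend=FALSE, the GC trend, the replicate block and each library left out, 39 and 0 in voom, and 11 and 7 with the same summed RPKM. The 488 lower and 303 higher over 2-fold became 98 and 1640 with the same summed RPKM, 312 and 157 with a minimum of 5 RPKM, 302 and 304 with the GC trend removed, and 223 to 730 and 199 to 729 with a library left out. Actg2 has no value with a minimum of 5 RPKM or in voom. Depth limits Actg2 and, outside WT 1, Actc1.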
